A study of Macaca mulatta with 34 samples.

Results

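RNA from the deep cerebellar nuclei (DCN) of rhesus macaques given the vector miSCA7Stuffer was compared with RNA from the DCN of macaques given the vector StufferOnly. The members are the 3 libraries titled miSCA7Stuffer and the 3 titled StufferOnly of Study 2, 6 of the 34 samples of the series. Every comparison was made once with all 6 libraries and once without miSCA7Stuffer replicate 1, a library chosen for removal because it held almost no vector reads. The 3 Empty_Capsid libraries of the same study, from macaques given a capsid that by its name carries no genome, shared the fits and serve as background. All 9 animals received adeno-associated virus (AAV) capsids into the DCN by an injection guided with magnetic resonance imaging. The labels give no dose, time after injection, age or sex, and each library comes from an animal with an identifier of its own. Study 2 was set up to look at immune responses to its constructs.

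The DCN hold the neurons that carry the output of the cerebellum. Their large projection neurons use glutamate, are rich in neurofilaments and fire fast, and they lie among GABA and glycine neurons, astrocytes and heavily myelinated axons. An artificial microRNA is transcribed from the vector as a hairpin, cut by DROSHA and DICER1 and loaded into an Argonaute protein, which then represses messages that match it. SCA7 is spinocerebellar ataxia type 7, caused by an expanded polyglutamine tract in ATXN7, a subunit of the SAGA coactivator complex, and a stuffer is filler DNA that brings a vector genome to packaging size.

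The libraries held 20978241 to 33001265 counts in genes with miSCA7Stuffer, 22183232 to 32618716 with StufferOnly and 28496977 to 39792653 with Empty_Capsid. Over log2 expression, the library labelled miSCA7Stuffer replicate 1 correlated at 0.964 to 0.970 with the Empty_Capsid libraries, but at 0.894 to 0.896 with miSCA7Stuffer replicates 2 and 3 and at 0.886 to 0.926 with StufferOnly. The other miSCA7Stuffer libraries correlated at 0.969 with each other. StufferOnly replicate 1 also stood nearer to Empty_Capsid (0.934 to 0.940) than StufferOnly replicates 2 and 3 did (0.884 to 0.906). Summed over 7 Y-linked genes, a look chosen after seeing the data, replicate 1 held 348 CPM with miSCA7Stuffer and 479 CPM with StufferOnly, and Empty_Capsid replicates 1 and 3 held 405 and 394 CPM, whereas the remaining 5 libraries held at most 0.674 CPM. Granule cell genes, which mark the cerebellar cortex, summed to 3222 CPM in miSCA7Stuffer replicate 1, against 862.8 to 1010 CPM in replicates 2 and 3, 463.4 to 1158 CPM with StufferOnly and 764 to 866.6 CPM with Empty_Capsid.

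Vector sequence was abundant in 2 of the 3 miSCA7Stuffer libraries and in all StufferOnly libraries. Reads on the vector sequence numbered 54, 9262 and 5394 in miSCA7Stuffer replicates 1, 2 and 3, or 1.64, 349 and 257 RPM (reads scaled to the counts in genes of each library). StufferOnly libraries held 11408, 13872 and 7942 such reads (350, 625 and 248 RPM), and Empty_Capsid libraries 6, 8 and 6 (0.151, 0.281 and 0.191 RPM). The value of miSCA7Stuffer replicate 1 (exact Poisson 95% interval 1.23 to 2.14 RPM, which covers counting error only) lay above every Empty_Capsid library and far below every other vector library, whereas replicates 2 and 3 lay within the StufferOnly range. The difference in log2 RPM was -2.84 with all libraries (two-sided exact permutation p = 0.4, where 0.1 is the smallest that 3 against 3 allows). Without replicate 1, which was left out for its low vector reads, it was -0.34, a description with no test.

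The vector groups differed in the share of vector reads that fell on single features. In all libraries vector reads are those on the same sequence, named GpKFBextmU6miS1newStfr. That name holds miS1 and is neither group's title, and how the sequence differs from each construct is not stated. The feature named RNAi expression cassette held 303 and 160 reads in miSCA7Stuffer replicates 2 and 3, against 179, 159 and 104 with StufferOnly. Per 100 vector reads that is 3.27 and 2.97 with miSCA7Stuffer against 1.57, 1.15 and 1.31 with StufferOnly, with no overlap (log2 difference 1.23). Stuffer reads made up 69.3 and 66.5 per 100 vector reads with miSCA7Stuffer against 83.0, 78.4 and 77.9 with StufferOnly, also with no overlap (log2 difference -0.23). Both differences are descriptions with no test, because replicate 1 was left out for its low vector reads. The feature named miS1, after the artificial microRNA of Study 1, held 38 and 28 reads in miSCA7Stuffer replicates 2 and 3 and 0 in every StufferOnly and Empty_Capsid library. A count of 0 allows up to 0.135 RPM in the shallowest StufferOnly library, below the 1.43 and 1.33 RPM measured with miSCA7Stuffer. In the library labelled miSCA7Stuffer replicate 1 the cassette, the primary microRNA and miS1 features were all at 0, which allows up to 0.0909 RPM each. The labels do not say which sequence each feature covers, and StufferOnly libraries also held 4.63, 5.54 and 2.49 RPM on the primary microRNA feature.

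ATXN7, the gene that the miSCA7 cargo names as its target, was lower in every miSCA7Stuffer library than in any StufferOnly library. The same held for 8.29% of all genes tested, and the ATXN7 difference did not pass the test across all genes. It stood at 36.8, 31.1 and 24.96 CPM (counts scaled to the library's TMM-adjusted total) in miSCA7Stuffer replicates 1, 2 and 3. StufferOnly libraries held 40.5, 46.8 and 42.6 CPM and Empty_Capsid libraries 36.5, 32.7 and 34.4 CPM. The library without cassette reads lay just above the Empty_Capsid range and replicates 2 and 3 lay below it. With all libraries the log2 fold change was -0.48 (SE 0.16, edgeR adjusted p = 0.364; two-sided exact permutation p = 0.1, the smallest possible). Without replicate 1, ATXN7 averaged 28.0 ± 4.35 CPM with miSCA7Stuffer (SD, n = 2) against 43.3 ± 3.2 CPM with StufferOnly (n = 3). The difference in mean log2 CPM was -0.63 (two-sided exact permutation p = 0.2, the smallest possible). The log2 fold change of the fit without replicate 1, which scales the libraries anew, was -0.55 (SE 0.13, edgeR adjusted p = 0.0732). DESeq2 called this difference (log2 fold change -0.60, DESeq2 adjusted p = 0.00424), and over all 12 alternatives the adjusted p ran from 0.00424 to 0.308. StufferOnly libraries all lay above the Empty_Capsid libraries in ATXN7 (log2 fold change 0.33, edgeR adjusted p = 0.182), so replicates 2 and 3 stood nearer to Empty_Capsid (log2 fold change -0.33, edgeR adjusted p = 0.0817) than to StufferOnly.

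**Figure D1:**
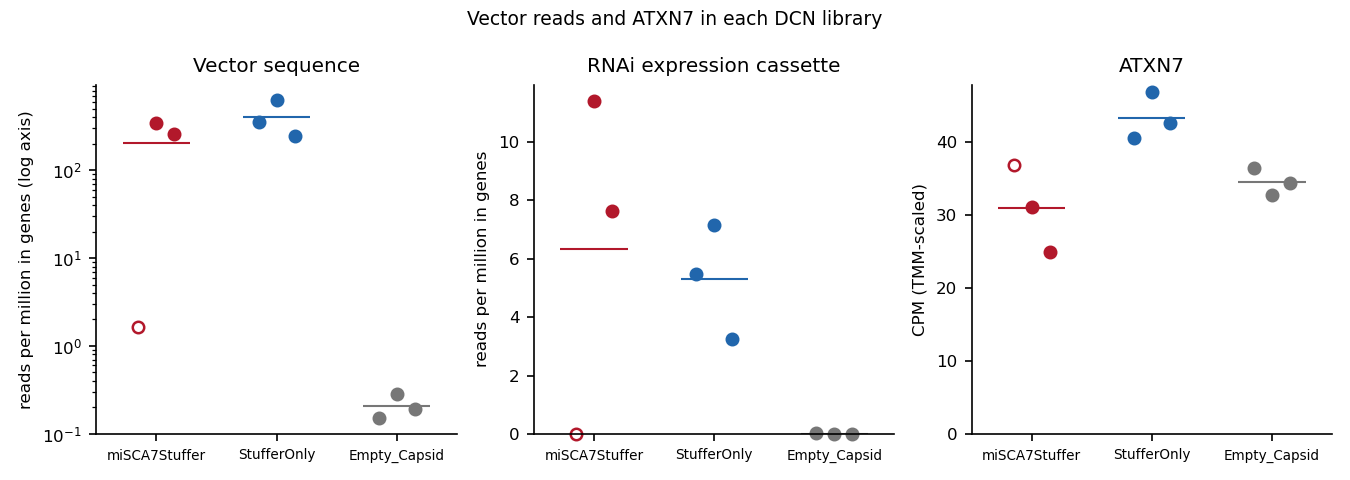
Vector sequence reads (left, log axis), RNAi expression cassette reads (middle), both in RPM, and ATXN7 in TMM-scaled CPM (right), in the miSCA7Stuffer, StufferOnly and Empty_Capsid libraries. Points are libraries in replicate order, bars are group means over all 3, and the open point is miSCA7Stuffer replicate 1, which sits at 1.64 vector RPM, at 0 in the cassette and at 36.8 CPM in ATXN7, below all StufferOnly libraries.

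Across all genes, no gene passed an adjusted p of 0.05 with all 6 libraries, and 343 did without miSCA7Stuffer replicate 1. With all libraries 20882 genes were tested and edgeR called 0 of them (0.00%), with 2117 at an unadjusted p under 0.05 and 413 called by DESeq2 (260 up, 153 down). In that comparison 1313 genes (6.29%) were higher in all 3 miSCA7Stuffer libraries than in any StufferOnly library and 1732 (8.29%) were lower in all 3. Without replicate 1, 21539 genes were tested and 193 (0.896%) rose and 150 (0.696%) fell, while 2844 (13.2%) lay above every StufferOnly library in both remaining libraries and 4589 (21.3%) below. With size factors from DESeq2 in place of TMM the split was 136 up and 217 down. These calls rest on few libraries: with the replicate number as a block CYP7B1 was the only gene called, so every other call named below is lost in that fit. With only the 5 libraries compared 0 genes were called, and without miSCA7Stuffer replicate 2 or replicate 3 again 0. Leaving out StufferOnly replicate 1, the compared library in which Y-linked genes summed to 479 CPM, gave 576 calls, 313 of them among the 343.

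The genes that rose and the genes that fell stood differently in the library labelled miSCA7Stuffer replicate 1. Of the 193 rises, 150 were also higher in miSCA7Stuffer replicate 1 than in every StufferOnly library, against 34.2% of all genes tested, and their median log2 fold change was 0.85. Of the 150 falls, 26 were also lower in replicate 1 than in every StufferOnly library, against 35.5% of all genes tested, and their median log2 fold change was -1.82. The called genes were chosen against the same StufferOnly libraries, so these counts describe them and test nothing. Against the Empty_Capsid mean, the falls had a median log2 difference of -2.76 in miSCA7Stuffer replicates 2 and 3, -0.05 in replicate 1 and -0.89 with StufferOnly. The rises had a median of 0.24 in replicates 2 and 3, -0.13 in replicate 1 and -0.55 with StufferOnly. Both vector groups share the Empty_Capsid libraries in these differences. The medians of replicates 2 and 3 likewise come from the libraries the calls were made on.

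**Figure D2:**
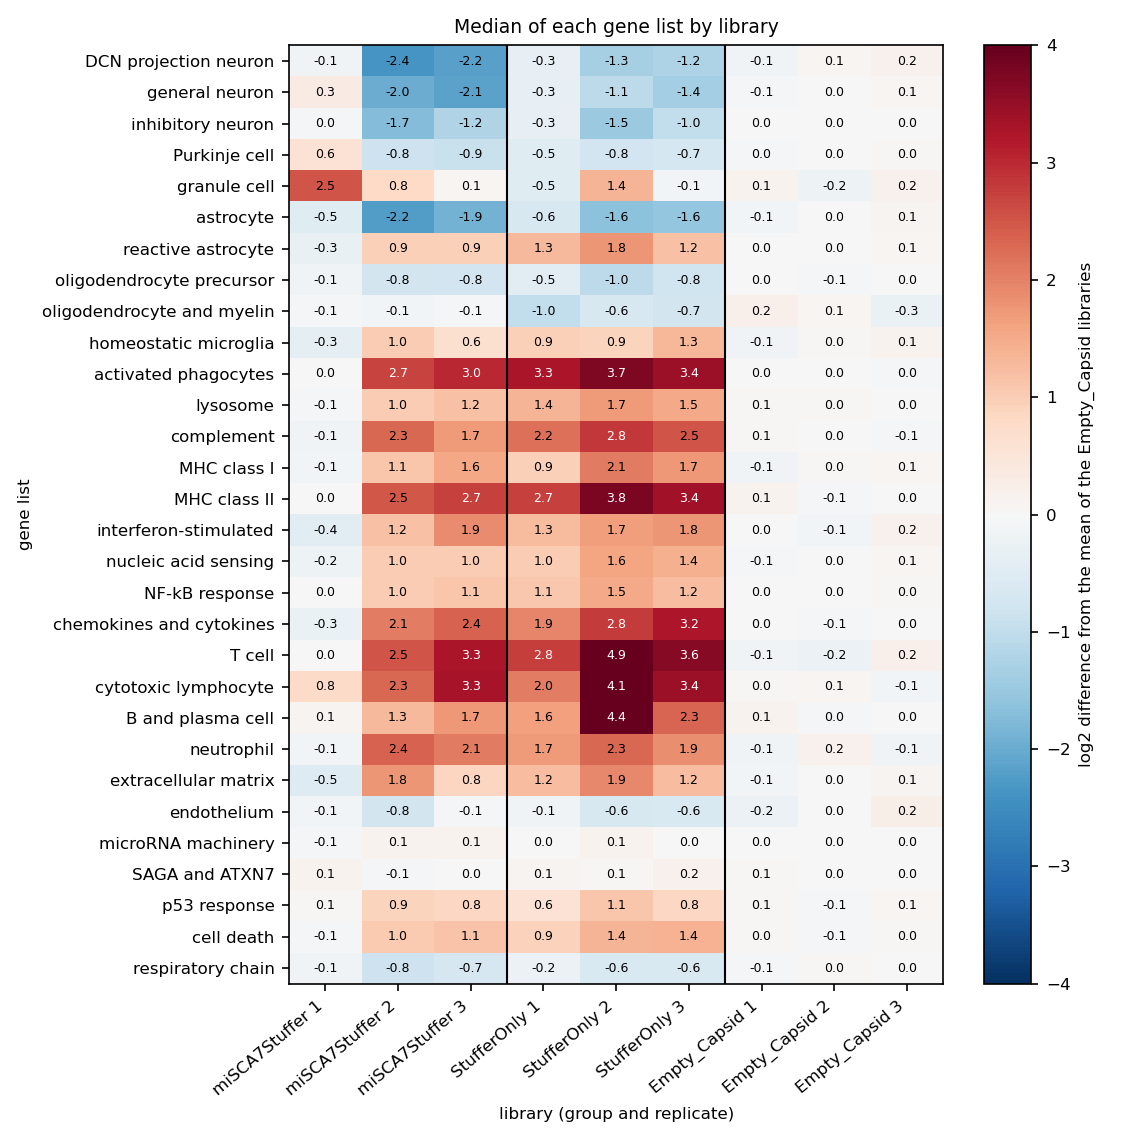
Median over the tested genes of each of 30 gene lists (rows), as the log2 difference from the mean of the Empty_Capsid libraries, in each miSCA7Stuffer, StufferOnly and Empty_Capsid library (columns); red is higher and blue lower. The projection neuron and general neuron lists are lowest in miSCA7Stuffer replicates 2 and 3, the myelin list is lower in the StufferOnly libraries alone, immune lists are high in every vector library except miSCA7Stuffer replicate 1, and that replicate is highest in granule cell genes (2.5).

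Most genes of the list for DCN projection neurons were lower in miSCA7Stuffer replicates 2 and 3 than in StufferOnly libraries. Without replicate 1, 7 of 18 tested genes of the list fell, against 0.696% of all genes, and none rose, with a median log2 fold change of -1.56 against -0.02 over all genes tested, and 12 of 18 were lower in both libraries than in every StufferOnly library, against 21.3% of all genes. With the replicate block the median was -1.24 and 0 members were called. Without replicate 1 and the block, 15 members were below 0 and 3 above, among them MEIS1 (log2 fold change 0.5, SE 0.14, edgeR adjusted p = 0.104). SLC17A6, the vesicular glutamate transporter of these neurons, stood at 111, 5.18 and 4.78 CPM in miSCA7Stuffer replicates 1, 2 and 3, at 111, 54.0 and 53.7 CPM with StufferOnly and at 151, 181 and 179 CPM with Empty_Capsid. Replicates 2 and 3 held 6.84% of the StufferOnly mean (log2 fold change -3.80, SE 0.37, edgeR adjusted p = 0.0161), whereas replicate 1 lay within the StufferOnly range. With all libraries the fold change was -0.85 (edgeR adjusted p = 0.839) and the groups overlapped. Fewer cells of a type and less RNA per cell cannot be told apart in bulk tissue, and the same holds for every cell type below.

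The 3 neurofilament chains, which build the axonal skeleton of large neurons, also fell without replicate 1. The heavy chain NEFH stood at 625, 15.1 and 31.8 CPM in miSCA7Stuffer replicates 1, 2 and 3, at 619, 288 and 271 CPM with StufferOnly and at 542, 789 and 951 CPM with Empty_Capsid. Without replicate 1 its log2 fold change was -3.998 (SE 0.52, edgeR adjusted p = 0.0238), that of the medium chain NEFM -3.35 (SE 0.46, adjusted p = 0.0239) and that of the light chain NEFL -2.68 (SE 0.42, adjusted p = 0.0292). The potassium channel KCNA1 had a log2 fold change of -2.74 (SE 0.44, edgeR adjusted p = 0.0307). SV2B, a synaptic vesicle protein, fell by 1.76 (SE 0.34, edgeR adjusted p = 0.0472). SPP1, which projection neurons and activated phagocytes both express, did not pass and stood at 666, 1040 and 991.5 CPM with miSCA7Stuffer against 1083, 1042 and 1070 CPM with StufferOnly.

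**Figure D3:**
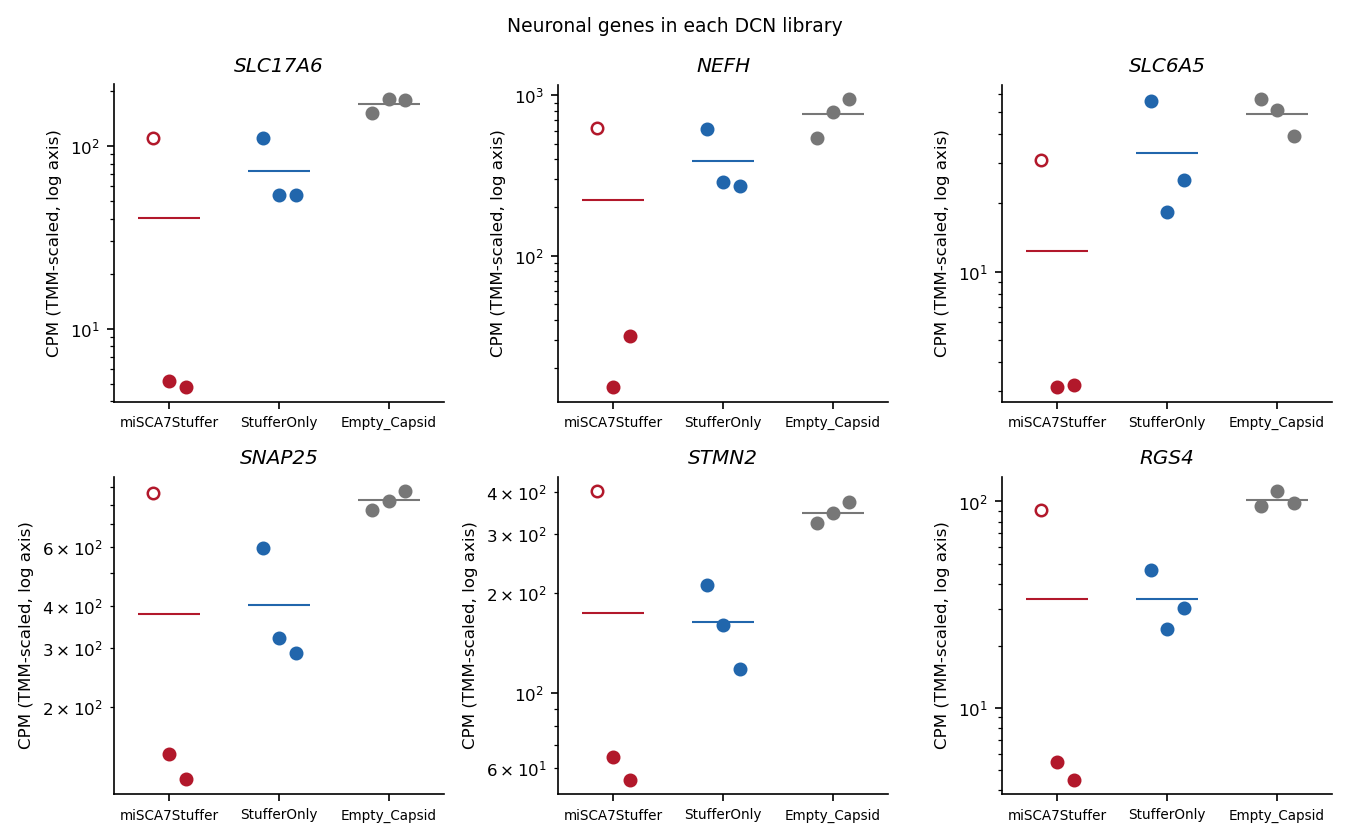
TMM-scaled CPM (log axes) of 6 neuronal genes in the miSCA7Stuffer, StufferOnly and Empty_Capsid libraries, with points for libraries in replicate order, bars for the mean of all 3 and the open point for miSCA7Stuffer replicate 1. In each panel miSCA7Stuffer replicates 2 and 3 lie below all StufferOnly libraries (SLC17A6 5.18 and 4.78 CPM against 53.7 to 111 CPM), StufferOnly replicate 1 lies above the other StufferOnly libraries, and the open point lies within or above the StufferOnly range.

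Most genes of the general neuron list, which neurons at large share, were also lower in miSCA7Stuffer replicates 2 and 3. Without replicate 1, 6 of 29 genes of the general neuron list fell, against 0.696% of all genes, and none rose. The median log2 fold change was -1.11, and 19 of 29 lay below every StufferOnly library in both miSCA7Stuffer libraries, against 21.3% of all genes. With the replicate block the median was -0.92 and 0 members were called. Without replicate 1 and the block, 25 members were below 0 and 4 above. Among the 4 were SCN2A, STX1A and CAMK2B, with log2 fold changes of 0.25, 0.3 and 0.09 (edgeR adjusted p 0.813, 0.65 and 0.87). CAMK2A was the highest of the 4 and did not pass either (edgeR adjusted p = 0.452). SNAP25, a protein of vesicle fusion, stood at 869, 145 and 121 CPM in miSCA7Stuffer replicates 1, 2 and 3, at 595, 320 and 289 CPM with StufferOnly and at 770, 823 and 878 CPM with Empty_Capsid (log2 fold change without replicate 1 -1.52, SE 0.30, edgeR adjusted p = 0.0492). The calcium sensor of vesicle release SYT2, the sodium channel SCN8A, the NMDA receptor subunit GRIN1, the neuronal tubulin TUBB3 and the microtubule regulator STMN2 had log2 fold changes of -2.46, -2.21, -2.02, -1.59 and -1.37 (edgeR adjusted p 0.0314, 0.0301, 0.0366, 0.0460 and 0.0316). MAP2, a dendritic microtubule protein, was among those that did not pass, at 573, 173 and 253 CPM with miSCA7Stuffer against 569, 311 and 345 CPM with StufferOnly. With all 6 libraries the list had 18 members above 0 and 11 below and a median of 0.18. Leaving out StufferOnly replicate 1 as well as miSCA7Stuffer replicate 1 left 13 general neuron genes and 7 projection neuron genes called lower.

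Without replicate 1, GABA and glycine neuron genes gave 2 calls of 15, both lower, against 0.696% of all genes. Of the 15, 13 were below 0 and 2 above. The 2 above were SLC6A9 (log2 fold change 0.84, SE 0.25, edgeR adjusted p = 0.123) and NPY (1.35, SE 0.94, adjusted p = 0.485). SLC6A5, the transporter that marks glycine neurons, stood at 30.8, 3.10 and 3.19 CPM in miSCA7Stuffer replicates 1, 2 and 3, at 55.9, 18.3 and 25.3 CPM with StufferOnly and at 57.3, 51.3 and 39.2 CPM with Empty_Capsid (log2 fold change without replicate 1 -3.33, SE 0.49, edgeR adjusted p = 0.0271). GLRA1, a subunit of the glycine receptor, fell by 3.15 (SE 0.59, edgeR adjusted p = 0.0441). GAD1, which makes GABA, did not pass and overlapped between groups, at 105, 33.5 and 57.3 CPM against 70.0, 39.2 and 54.8 CPM with StufferOnly. The median of the list was -0.04 with all libraries and -0.85 without replicate 1, where it was -0.57 with 0 called under the replicate block and -0.38 when StufferOnly replicate 1 was also left out.

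Further genes with the smallest p among the falls without replicate 1 are taken by rule from all genes. RGS4, which shortens G protein signals, stood at 90.9, 5.501 and 4.51 CPM in miSCA7Stuffer replicates 1, 2 and 3, against 46.7, 24.1 and 30.4 CPM with StufferOnly and 94.9, 112 and 98.8 CPM with Empty_Capsid (log2 fold change -2.68, SE 0.30, edgeR adjusted p = 0.0161). Replicate 1 was higher than every StufferOnly library in it. The neuritin gene NRN1, the neuronal repressor SCRT2, the BMP antagonist NOG and the Ras exchange factor RASGRF1 had log2 fold changes of -2.08, -3.60, -2.40 and -1.28 (edgeR adjusted p 0.0238, 0.0238, 0.0238 and 0.0226). ASAH2, a neutral ceramidase, fell by 3.41 (edgeR adjusted p = 0.0161). SDC2, a cell-surface heparan sulphate proteoglycan, stood at 51.8, 17.9 and 21.6 CPM with miSCA7Stuffer against 56.2, 56.0 and 59.3 CPM with StufferOnly, where all 3 lay below all 3 (log2 fold change without replicate 1 -1.46, SE 0.14, edgeR adjusted p = 0.0161).

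Genes of the cerebellar cortex differed between libraries of the same group. GABRA6, a receptor subunit of granule cells, stood at 85.7, 22.6 and 4.42 CPM with miSCA7Stuffer, at 0.594, 30.0 and 1.36 CPM with StufferOnly and at 1.94, 0.300 and 1.49 CPM with Empty_Capsid. The library labelled miSCA7Stuffer replicate 1 was highest in it and StufferOnly replicate 2 next. With all libraries the 19 tested granule cell genes were all above 0 with a median log2 fold change of 1.30, and without replicate 1 the median was 0.10, with 0 called in each. That median was 1.01 when StufferOnly replicate 2 was also left out, and -0.61 when miSCA7Stuffer replicate 2 was. Of 23 Purkinje cell genes 0 were called in either comparison, and CALB1, which buffers calcium in Purkinje cells, stood at 75.1, 13.4 and 13.1 CPM with miSCA7Stuffer against 9.38, 13.03 and 11.9 CPM with StufferOnly. The part of cortical tissue in the higher neuronal values of miSCA7Stuffer replicate 1 was not tested.

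Myelin genes were higher with miSCA7Stuffer, in replicate 1 as in the others. With all libraries the 17 tested genes of the oligodendrocyte and myelin list, MOBP being counted under 2 identifiers, were all above 0 with a median log2 fold change of 0.69 against -0.03 over all genes. None was called, 14 had an unadjusted p under 0.05, and 12 of 17 were higher in all 3 miSCA7Stuffer libraries than in every StufferOnly library, against 6.29% of all genes. Without replicate 1, 3 of 17 rose, against 0.896% of all genes, and the median was 0.74. In that comparison 15 of 17 were higher in both libraries than in every StufferOnly library, against 13.2% of all genes. With the replicate block the median was 0.72 and 0 were called. The median log2 difference of the list from the Empty_Capsid mean was -0.09, -0.12 and -0.06 in miSCA7Stuffer replicates 1, 2 and 3 and -1, -0.64 and -0.74 with StufferOnly. All miSCA7Stuffer libraries lay within the Empty_Capsid range of -0.28 to 0.19 and all StufferOnly libraries below it.

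ERMN, a cytoskeletal protein of myelinating cells, stood at 788, 889 and 895 CPM in miSCA7Stuffer replicates 1, 2 and 3, at 357, 398 and 538 CPM with StufferOnly and at 984, 918 and 775 CPM with Empty_Capsid. Its log2 fold change was 0.99 with all libraries (SE 0.18, edgeR adjusted p = 0.228) and 1.13 without replicate 1 (SE 0.18, adjusted p = 0.0308). UGT8 and GAL3ST1, which make the myelin lipids galactosylceramide and sulphatide, rose by 0.77 (SE 0.15, edgeR adjusted p = 0.0472) and 0.78 (SE 0.15, adjusted p = 0.0481) without replicate 1. The major myelin protein gene MBP did not pass and stood at 18430, 11230 and 15250 CPM with miSCA7Stuffer against 8610, 9536 and 8751 CPM with StufferOnly (edgeR adjusted p = 0.186 without replicate 1). All 3 miSCA7Stuffer libraries lay above all 3 StufferOnly libraries in MBP. Of 10 oligodendrocyte precursor genes 0 were called in either comparison, with medians of 0.32 with all libraries and 0.02 without replicate 1.

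Several of the leading rises were high in every miSCA7Stuffer library and every Empty_Capsid library. PAQR6, a membrane progesterone receptor, stood at 508, 562 and 488 CPM with miSCA7Stuffer, at 187, 161 and 226 CPM with StufferOnly and at 587, 534 and 460.1 CPM with Empty_Capsid (log2 fold change 1.44, SE 0.16, edgeR adjusted p = 0.132 with all libraries, and 1.53, SE 0.17, adjusted p = 0.0161 without replicate 1). MAL, a proteolipid of compact myelin, stood at 68.5, 80.9 and 65.9 CPM with miSCA7Stuffer, against 30.9, 32.2 and 30.5 CPM with StufferOnly and 82.2, 63.4 and 58.8 CPM with Empty_Capsid (log2 fold change without replicate 1 1.31, SE 0.16, edgeR adjusted p = 0.0227). Neither gene overlapped between the vector groups, and in both the StufferOnly libraries were the low ones. CTNNA3, a catenin of cell junctions, TP53INP2, which acts in autophagy, and GNAI1, an inhibitory G protein subunit, rose by 1.01, 1.06 and 1.09 on the log2 scale without replicate 1 (edgeR adjusted p = 0.0238 each). ABCA8, a lipid transporter, KCNJ2, an inward rectifier potassium channel, ZCCHC24, a zinc finger protein, and MOB3B, a kinase adaptor, rose by 1.14, 1.22, 0.67 and 1.30 (edgeR adjusted p 0.0238, 0.0238, 0.0238 and 0.0259).

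Other leading rises were higher in miSCA7Stuffer replicates 2 and 3 than in both StufferOnly and Empty_Capsid libraries. CYP7B1, the oxysterol 7-alpha-hydroxylase, stood at 70.2, 189 and 148 CPM in miSCA7Stuffer replicates 1, 2 and 3, at 46.8, 54.2 and 47.4 CPM with StufferOnly and at 96.0, 115 and 80.6 CPM with Empty_Capsid. Replicates 2 and 3 exceeded all 6 control libraries, at 340% of the StufferOnly mean (log2 fold change 1.84, SE 0.16, edgeR adjusted p = 0.0161 without replicate 1 and 0.0327 with the replicate block). TM4SF18, a 4-pass membrane protein, stood at 11.4, 37.6 and 29.6 CPM with miSCA7Stuffer, against 11.0, 10.6 and 11.7 CPM with StufferOnly and 15.7, 20.9 and 19.8 CPM with Empty_Capsid (log2 fold change 1.67, SE 0.17, edgeR adjusted p = 0.0161). TMEM63A, a mechanosensitive ion channel, rose by 1.09 (SE 0.12) and stood at 55.3, 88.6 and 95.9 CPM with miSCA7Stuffer, against 43.9, 49.8 and 43.3 CPM with StufferOnly and 44.6, 37.7 and 38.1 CPM with Empty_Capsid. The receptor phosphatase PTPRK, the palmitoyltransferase ZDHHC20 and CATSPERG, a subunit of the sperm calcium channel, rose by 1.09, 1.19 and 1.49 on the log2 scale (edgeR adjusted p 0.0161, 0.0226 and 0.0238). In all of these genes the value of replicate 1 lay below those of replicates 2 and 3.

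**Figure D4:**
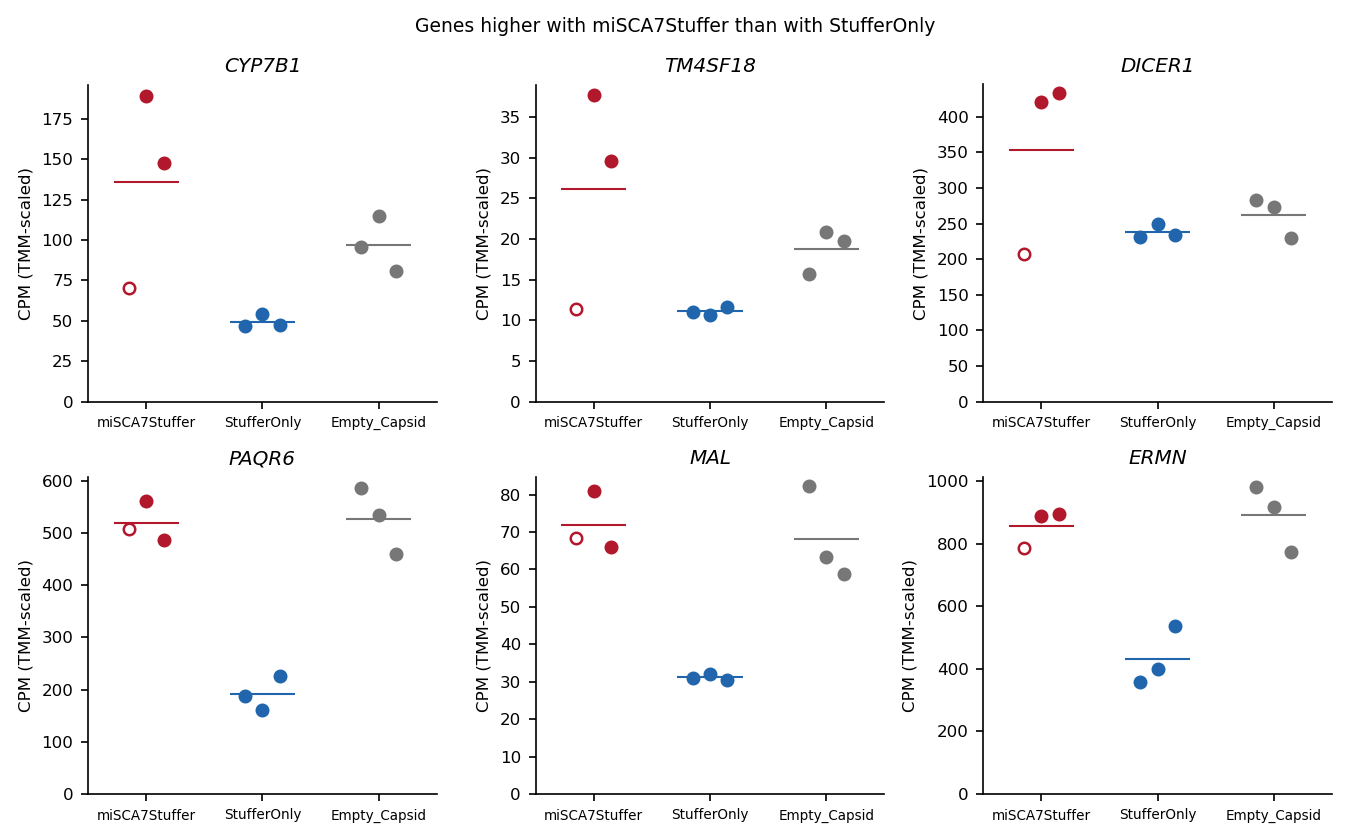
TMM-scaled CPM (linear axes from 0) of 6 genes in the miSCA7Stuffer, StufferOnly and Empty_Capsid libraries, with points for libraries in replicate order, bars for the mean of all 3 and the open point for miSCA7Stuffer replicate 1. In CYP7B1, TM4SF18 and DICER1 miSCA7Stuffer replicates 2 and 3 stand above every other library, whereas in PAQR6, MAL and ERMN all miSCA7Stuffer and Empty_Capsid libraries stand above all StufferOnly libraries.

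DICER1, the nuclease that cuts microRNA precursors, was the called member of the microRNA machinery list, 1 of 19 without replicate 1, where 0.896% of all genes rose. It stood at 207, 420.2 and 434 CPM in miSCA7Stuffer replicates 1, 2 and 3, at 231, 249 and 234 CPM with StufferOnly and at 283, 274 and 230 CPM with Empty_Capsid. Replicates 2 and 3 lay above every other library and replicate 1 below every one, with a log2 fold change of 0.57 with all libraries (SE 0.26, edgeR adjusted p = 0.499) and 0.92 without replicate 1 (SE 0.11, adjusted p = 0.0238). The other 18 tested members did not pass in either comparison, and the list median was 0.01 with all libraries and 0.16 without replicate 1. AGO2, the Argonaute that slices its targets, stood at 42.3, 58.8 and 71.6 CPM with miSCA7Stuffer against 37.7, 50.1 and 40.6 CPM with StufferOnly (edgeR adjusted p = 0.0592 without replicate 1). TNRC6C, a partner of Argonaute proteins, stood at 129, 115 and 119 CPM against 83.7, 95.03 and 91.1 CPM (adjusted p = 0.0670).

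The other subunits of SAGA did not pass the test. Of 20 tested members of the SAGA and ATXN7 list 0 were called in either comparison, with medians of -0.01 with all libraries and 0.00 without replicate 1. TRRAP, the scaffold of the complex, stood at 162, 214 and 198 CPM with miSCA7Stuffer against 203, 240 and 203 CPM with StufferOnly. USP22, the deubiquitinase that ATXN7 anchors, stood at 168, 122 and 125 CPM against 150, 146 and 134 CPM. Of the 8 other polyglutamine disease genes 0 were called in either comparison. ATXN1, the spinocerebellar ataxia type 1 gene, which miS1 is known to target, stood at 58.6, 24.8 and 39.4 CPM with miSCA7Stuffer, at 49.2, 48.5 and 50.3 CPM with StufferOnly and at 45.2, 53.6 and 57.3 CPM with Empty_Capsid (log2 fold change -0.27, edgeR adjusted p = 0.788, and -0.54, adjusted p = 0.187 without replicate 1). Replicates 2 and 3 lay below and replicate 1 above all StufferOnly libraries.

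Immune genes were above the Empty_Capsid level in the libraries with abundant vector reads of both groups, and their differences between the vector groups mostly did not pass. Activated phagocyte genes summed to 14250 and 15990 CPM in miSCA7Stuffer replicates 2 and 3 and to 2075 CPM in replicate 1, against 16010 to 30620 CPM with StufferOnly and 2115 to 2306 CPM with Empty_Capsid. With all libraries 22 of 24 tested members were below 0, the median log2 fold change was -1.06 and 0 were called. Without replicate 1, 20 of 24 were below 0, the median was -0.40 and 1 fell, against 0.696% of all genes. GPNMB, a glycoprotein of lipid-laden macrophages, stood at 6.89, 2955 and 3785 CPM in miSCA7Stuffer replicates 1, 2 and 3, at 3100, 5414 and 5222 CPM with StufferOnly and at 6.45, 6.82 and 2.87 CPM with Empty_Capsid (log2 fold change without replicate 1 -0.36, SE 0.34, edgeR adjusted p = 0.627). The ranges of replicates 2 and 3 and of StufferOnly overlapped, and replicate 1 lay just above the highest Empty_Capsid value.

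APOE, the lipid carrier of glia and macrophages, was the phagocyte gene that fell without replicate 1. It stood at 380, 1366 and 1362 CPM in miSCA7Stuffer replicates 1, 2 and 3, at 2449, 2791 and 2379 CPM with StufferOnly and at 413, 386 and 403 CPM with Empty_Capsid (log2 fold change -0.82, SE 0.12, edgeR adjusted p = 0.0271). ACSL5, a long-chain acyl-CoA synthetase, showed the same order, at 12.1, 65.6 and 62.5 CPM with miSCA7Stuffer, at 146, 134 and 148 CPM with StufferOnly and at 11.97, 12.1 and 12.7 CPM with Empty_Capsid (log2 fold change -1.08, SE 0.11, edgeR adjusted p = 0.0161). In both genes replicates 2 and 3 lay between the other groups with no overlap. The lysosomal proteases CTSB and CTSD were at 298, 1978 and 2685 CPM and at 306, 1888 and 2544 CPM with miSCA7Stuffer, against 2966, 6963 and 4009 CPM and 2892, 4980 and 3327 CPM with StufferOnly, and did not pass (edgeR adjusted p 0.169 and 0.166 without replicate 1). Of 19 lysosome genes 13 were lower in all 3 miSCA7Stuffer libraries than in every StufferOnly library, against 8.29% of all genes, but 0 were called, with medians of -0.68 with all libraries and -0.29 without replicate 1.

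Genes of antigen presentation and lymphocytes had negative medians and no calls. CD74, the chaperone of MHC class II, stood at 240, 1096 and 1521 CPM in miSCA7Stuffer replicates 1, 2 and 3, at 1510, 3315 and 2367 CPM with StufferOnly and at 293, 215 and 210.3 CPM with Empty_Capsid (log2 fold change without replicate 1 -0.79, SE 0.31, edgeR adjusted p = 0.211). MiSCA7Stuffer replicate 3 overlapped StufferOnly replicate 1 in CD74. All 8 tested MHC class II genes were below 0 in both comparisons, with medians of -1.17 with all libraries and -0.64 without replicate 1. The medians of the T cell list were -1.25 and -0.72 (23 tested), of the B and plasma cell list -1.29 and -0.69 (20), of the complement list -0.81 and -0.28 (17) and of the interferon-stimulated list -0.45 and -0.02 (38). Without replicate 1, leaving out StufferOnly replicate 2 as well brought the T cell and B and plasma cell medians to -0.14 and -0.19 and the interferon median to 0.16, and leaving out StufferOnly replicate 1 in its place brought the first pair to -1.09 and -1.12. Without miSCA7Stuffer replicate 3 the B and plasma cell median was -1.54 and the interferon median -0.46, and without replicate 2 the T cell median was -0.49 and the interferon median 0.23. IGHM, the immunoglobulin mu chain, stood at 0.729, 182 and 450 CPM with miSCA7Stuffer, against 333, 795 and 1070 CPM with StufferOnly and at most 0.793 CPM with Empty_Capsid (log2 fold change without replicate 1 -1.13, SE 0.49, edgeR adjusted p = 0.253). Replicate 1 lay within the Empty_Capsid range. The medians with all libraries include a library at the Empty_Capsid level.

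Microglial and astrocyte genes gave no calls beyond those above. CSF1R, the growth factor receptor of microglia, stood at 138, 211 and 157 CPM with miSCA7Stuffer against 349, 320 and 295 CPM with StufferOnly, and AIF1, a microglial actin-binding protein, at 6.44, 12.8 and 16.6 CPM against 28.6, 28.6 and 28.5 CPM. Neither overlapped between groups, and neither passed without replicate 1 (edgeR adjusted p 0.0596 and 0.0518). Of 10 homeostatic microglia genes, 7 were below 0 without replicate 1 and 3 above. Among the 3 was SALL1, which did not pass either (log2 fold change 0.73, SE 0.16, edgeR adjusted p = 0.0637). CHI3L1, secreted by reactive astrocytes, stood at 84.5, 204 and 160 CPM with miSCA7Stuffer, at 487, 362 and 755 CPM with StufferOnly and at 85.0, 115 and 120 CPM with Empty_Capsid, with all 3 below all 3 (log2 fold change -1.84, SE 0.37, edgeR adjusted p = 0.237, and -1.48, SE 0.31, adjusted p = 0.0529 without replicate 1). GFAP, the astrocyte filament, stood at 6160, 1975 and 4477 CPM against 9967, 4736 and 8455 CPM with StufferOnly (edgeR adjusted p = 0.158 without replicate 1), where replicate 1 overlapped. Of 16 homeostatic astrocyte genes 10 were above 0 with all libraries, with a median of 0.05. Without replicate 1, 14 were below 0, with a median of -0.71 (-0.47 with the replicate block and -0.29 without StufferOnly replicate 1), and 8 were lower in both libraries than in every StufferOnly library, against 21.3% of all genes. The water channel AQP4 stood at 1361, 533 and 964 CPM with miSCA7Stuffer against 1684, 686 and 1258 CPM with StufferOnly, and the gap junction protein GJA1 at 482, 117 and 202 CPM against 598, 215 and 445 CPM.

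**Figure D5:**
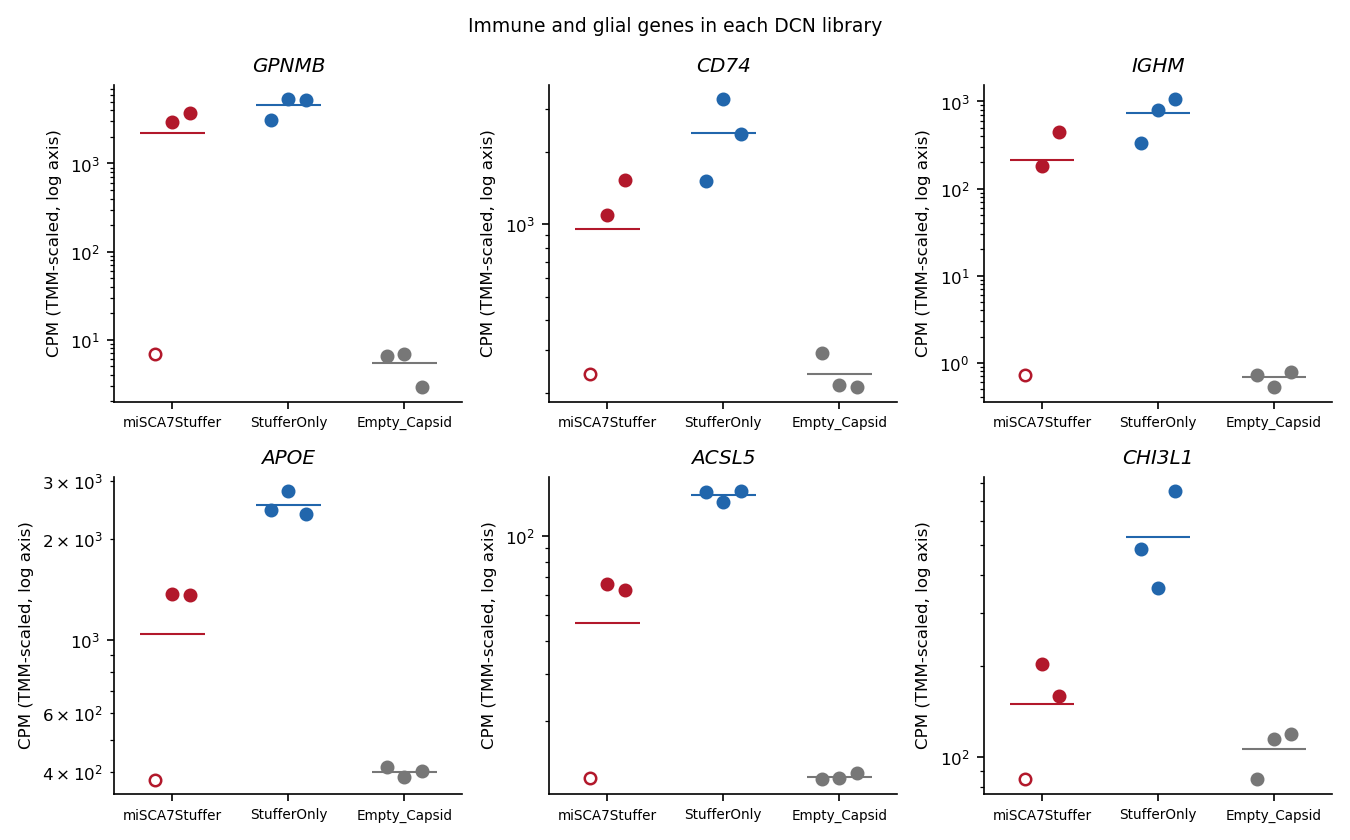
TMM-scaled CPM (log axes) of 6 immune and glial genes in the miSCA7Stuffer, StufferOnly and Empty_Capsid libraries, with points for libraries in replicate order, bars for the mean of all 3 and the open point for miSCA7Stuffer replicate 1. The open point lies near the Empty_Capsid libraries in all 6 panels, and miSCA7Stuffer replicates 2 and 3 lie between the Empty_Capsid and StufferOnly libraries in APOE (1366 and 1362 CPM) and ACSL5 (65.6 and 62.5 CPM).

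With all 6 libraries, the falls with the smallest p did not pass and included genes of several cell types. PSEN2, a presenilin, stood at 18.4, 23.7 and 29.9 CPM with miSCA7Stuffer, at 51.0, 57.9 and 53.7 CPM with StufferOnly and at 16.7, 16.2 and 15.03 CPM with Empty_Capsid (log2 fold change -1.18, SE 0.18, edgeR adjusted p = 0.224). The sterol exporter ABCG1, the autophagy protein TECPR1, the tetraspanin TSPAN4, the coagulation initiator F3, the semaphorin receptor NRP1, the BMP antagonist NBL1 and the ribosomal protein RPS19 had log2 fold changes of -0.85, -0.74, -1.23, -0.93, -1.43, -1.07 and -0.56 (edgeR adjusted p 0.224 to 0.228). Without replicate 1, PSEN2, ABCG1, TECPR1, TSPAN4 and NRP1 passed (adjusted p 0.0271 to 0.0472) and F3, NBL1 and RPS19 did not. The smallest adjusted p with all libraries, 0.0731, belonged to ENSMMUG00000040017, which has no symbol in the annotation used. It was chosen after its values were seen, and it stood at 0.425, 0.317 and 0.683 CPM with miSCA7Stuffer, at 9.89, 16.4 and 16.0 CPM with StufferOnly and at 0.156, 0.1498 and 0.0330 CPM with Empty_Capsid.

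The remaining lists gave few calls, beside shares of all genes called without replicate 1 of 0.896% up and 0.696% down. Without replicate 1, TYMS, which makes thymidylate for DNA synthesis, rose in the cell division list (1 of 22; 20.9, 51.4 and 63.3 CPM with miSCA7Stuffer against 20.2, 32.2 and 31.5 CPM with StufferOnly; edgeR adjusted p = 0.0366). MYH11, the myosin of smooth muscle, rose by 0.76 in the pericyte and smooth muscle list (1 of 11, edgeR adjusted p = 0.0301), and SLC22A6, an organic anion transporter, fell by 2.28 in the meninges list (1 of 11, adjusted p = 0.0492). No member was called in either comparison in the lists of p53 targets, cell death, immediate early genes, the unfolded protein response, heat shock, extracellular matrix, endothelium, choroid plexus, cholesterol synthesis, nuclear-encoded respiratory chain genes, MHC class I, nucleic acid sensing, NF-kB, chemokines, cytotoxic lymphocytes, neutrophils, homeostatic microglia, reactive astrocytes or red blood cells. Among these, medians without replicate 1 ran from -1.27 (red blood cell, 2 tested) to 0.21 (p53 response, 19 tested).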

How the data were processed

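Per the labels' protocols, ribosomal RNA was depleted and libraries were made with a directional kit. The submitters' processing notes name STAR 2.6.0c and DESeq2. The authors deposited featureCounts tables of counts, and per the file headers a read over more than 1 gene was counted for all of them. No source used here gives the strand setting, build or annotation, so reads of overlapping or antisense genes cannot be told apart. Members, gene lists and tests were chosen with earlier results of these data known, and the Y-linked genes after their values were seen.

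The 9 libraries (8 without miSCA7Stuffer replicate 1) were fitted with edgeR 4.0.16 in R 4.3.3, on 34847 identifiers, of which 24009 have a symbol. The filter was filterByExpr with a minimum count of 10 and total of 15, the scaling TMM, and genes were tested with the quasi-likelihood F test and adjusted by Benjamini-Hochberg at 0.05. The prior count was 0.125 for fold changes and 2 for log2 expression. The SE is the fold change over the root of F. CPM are TMM-scaled and not per length. CPM, log2 expression, percentages and non-overlap counts use the scaling of the 9 libraries in both comparisons. Fold changes without replicate 1 use the scaling of the 8 libraries, so they can differ slightly from ratios of the printed CPM. The 8 vector features stayed out of library sizes. A count of 0 was given a limit of 3 counts. The scripts were tested on simulated data with the same spread for every gene and no outlying library, so that test does not cover the spread of these libraries. The p values measure the spread between libraries within groups, estimated over all groups of a fit with Empty_Capsid included, and not that of the compared libraries alone.

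Same-numbered libraries of the 2 vector groups deviated together (correlations of 0.45, 0.18 and 0.25 for replicates 1, 2 and 3), although their animals differ by label. Of the differently numbered pairs, miSCA7Stuffer 2 with StufferOnly 3 reached 0.25 and 3 with 2 reached 0.13, and the other 4 ran from -0.37 to -0.20, so by number only replicate 1 stood apart. Every same-numbered correlation was above 0.1, so the fit with the replicate block is printed where it changes a call. Named genes were ATXN7 and ATXN1, the genes with the smallest p in each direction (up to 12 called or 8 not called), and per list the members of highest CPM and smallest p. A few genes that this rule names are not reported here. Other called list members (KCNA1, SV2B, GLRA1, SYT2, SCN8A, GRIN1, TUBB3, UGT8, APOE and SLC22A6) and CALB1, GABRA6 and CAMK2A were named after their values were seen. Alternatives were DESeq2 1.42.0, its size factors in edgeR, no filter, a mean of at least 1 CPM, only the libraries compared, the replicate block and leaving out each library. The 25 samples outside the fits were not used. Figures used Python 3.11.15 and matplotlib 3.10.9.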

Additional observations from a re-analysis of the deposited data

Results flagged for a closer look

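Reads on 3 features that enter no comparison above exceeded the Empty_Capsid level, in the sense that the lower end of a library's exact Poisson 95% interval, which covers counting error only, lay above the upper end of the highest Empty_Capsid interval. The feature named Rep2, after an AAV packaging gene, held 18.8 and 17.1 RPM in miSCA7Stuffer replicates 2 and 3 and 11.3, 26.6 and 7.79 RPM in StufferOnly replicates 1, 2 and 3, against at most 0.0702 RPM with Empty_Capsid. The feature named Cap1 held 17.8 and 14 RPM in miSCA7Stuffer replicates 2 and 3 and 8.61, 16.7 and 6.92 RPM with StufferOnly, against at most 0.0503 RPM with Empty_Capsid. Per 100 vector reads Cap1 held 5.09 and 5.45 with miSCA7Stuffer against 2.46, 2.67 and 2.80 with StufferOnly, and Rep2 held 5.37 and 6.64 against 3.24, 4.25 and 3.15, each with no overlap. The library labelled miSCA7Stuffer replicate 1 held 0 reads on Rep2 and 2 on Cap1. The feature named intronic_miS1_pKFB held 1.24 RPM in miSCA7Stuffer replicate 3, against at most 0.351 RPM with Empty_Capsid. It held 0.364 and 0.755 RPM in miSCA7Stuffer replicates 1 and 2 and 0.613, 0.902 and 0.187 RPM with StufferOnly. The interval of StufferOnly replicate 2 (0.551 to 1.39 RPM) overlapped that of miSCA7Stuffer replicate 3 (0.81 to 1.82 RPM). The source of these reads was not tested.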

How the results depend on the processing

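With all libraries, the count of 0 genes became 413 with DESeq2, 1 with no filter and 0 in the fits with the DESeq2 size factors, a mean of at least 1 CPM, only the 6 libraries and the replicate block; leaving out 1 library at a time gave 0 to 343, the highest without miSCA7Stuffer replicate 1. Without that replicate, the 343 calls became 353 with the DESeq2 size factors, 470 with a mean of at least 1 CPM, 680 with no filter, 1816 with DESeq2, 0 with only the 5 libraries, 1 with the replicate block and 147 with the 5 libraries and the block, an alternative chosen after seeing the data. Leaving out a further library gave 0 to 619, namely 0 without miSCA7Stuffer replicate 2 or 3, and 576, 619 and 445 without StufferOnly replicate 1, 2 or 3. The lone miSCA7Stuffer library left in such fits is assumed to vary like the other groups. Of the 343 genes, 286 were among the calls with the DESeq2 size factors, 342 with DESeq2 and 86 with the 5 libraries and the block.

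ATXN7 kept its direction in every alternative (log2 fold change -0.55 to -0.35 with all libraries and -0.71 to -0.42 without replicate 1) and passed only with DESeq2 without replicate 1 (-0.60). With the replicate block its adjusted p was 0.363 with all libraries and 0.173 without replicate 1. In the comparison it was chosen from, no gene given a fold change in the text changed direction; over the genes chosen without replicate 1 and their alternatives, the call was lost in 222 values and gained in 31, and the side of the threshold kept in 563. The myelin median stayed between 0.59 and 0.82 in both comparisons, and the projection neuron median between -1.80 and -1.01 without replicate 1. With all libraries the projection neuron, general neuron, inhibitory neuron and astrocyte medians of -0.27, 0.18, -0.04 and 0.05 became -1.56, -1.11, -0.85 and -0.71 without replicate 1, so those lists rest on that library. The causes of these differences were not tested.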

Other observations

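EOMES is a transcription factor of cytotoxic lymphocytes that unipolar brush cells of the cerebellar cortex also express. It stood at 15.03, 4.23 and 2.78 CPM in miSCA7Stuffer replicates 1, 2 and 3, against 1.31, 10.6 and 4.54 CPM with StufferOnly and at most 0.529 CPM with Empty_Capsid. Its highest values were in miSCA7Stuffer replicate 1 and StufferOnly replicate 2, as were those of GABRA6. GZMB, a granule protease of cytotoxic cells, stood at 0.122, 0.353 and 0.547 CPM with miSCA7Stuffer, against 2.02, 3.84 and 2.13 CPM with StufferOnly.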
